A study of Caenorhabditis elegans with 2 samples.

Results

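Of 3146 peaks in the series list of a ChIP-seq experiment on the zinc finger protein EGL-43, 384 had their summit from 0 to 500 bp downstream of the nearest transcription start site (TSS) of a protein-coding gene, on the strand of that gene. They are called downstream sites below. Summits that lay between divergent TSSs at most 2000 bp apart, or within 200 bp of a tRNA, snoRNA or snRNA gene, had been left out by that rule, and the annotation was Ensembl release 115 on WBcel235. The downstream sites fell at 363 genes. Position alone chose them, so their distance from the TSS is a description and not a result. The peaks came from whole L4 larvae of Caenorhabditis elegans strain RW12181, synchronised as starved L1 larvae and collected at 49 hours. In this strain the egl-43 gene itself, on chromosome II, carries TY1, EGFP and 3xFLAG tags inserted with CRISPR (st12181[egl-43::TY1::EGFP::3xFLAG]), and GFP was the target of the antibody. There were 2 biological replicates of this 1 group. Untagged worms and a control library were not analysed here, so how much of a signal is due to EGL-43 was not tested. Whole animals were used, so strong occupancy in few cells and weak occupancy in many cannot be told apart.

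EGL-43 is the worm relative of mammalian EVI1, a transcription factor with separate groups of zinc fingers that recognise a GATA-like and an ETS-like element. Worm promoters lie mostly upstream of the annotated start, and the DNA just downstream holds the 5' UTR, the first coding exon and often the first intron. For many worm genes the annotated start is a trans-splice site, where a short leader RNA is joined to the transcript, so the start of transcription may lie further upstream. In worm larvae EGL-43 is known for its part in the anchor cell, which invades the vulval epithelium, and in neurons. In ChIP-seq of other factors, DNA over the starts of strongly transcribed genes and over tRNA genes is known to be recovered with many unrelated proteins.

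Sequences around 10 summits show what the DNA of these sites looks like. Each runs from 50 bp before to 50 bp after the summit and is read 5' to 3' on the strand of the gene from the RefSeq WBcel235 genome. They come from sites called in both replicates and include the strongest one, that of K08F11.1, at chrIV:4725522-4725622. Capitals mark matches to CGCG, to GAGAGA, to GATGAG and to the letters GTTCNANNC, so a match on the other strand appears as its reverse complement. The CGCG letters repeat at mdt-26 (chrII:5661148-5661248), which encodes a Mediator subunit, and at F12F6.1 (chrIV:11584137-11584237). GAGAGA runs stand at F54F2.6 (chrIII:8800353-8800453), and GATGAG, part of the ETS-like element known for mammalian EVI1, stands beside a GAGAGA at the proteasome gene pas-1 (chrV:14422296-14422396). The coding DNA of F41F3.3 (chrV:4647889-4647989) and of the histone H4 gene his-60 (chrIV:7487717-7487817) holds none of these letters. The letters GTTCNANNC are part of the B box, an internal promoter element of tRNA genes, and were searched after the sequences had been seen. They stand at Y53G8AL.4 (chrIII:3249210-3249310), at the sphingomyelin synthase gene sms-3 (chrIII:1600804-1600904) and at Y43F8B.2 (chrV:19521479-19521579).
K08F11.1: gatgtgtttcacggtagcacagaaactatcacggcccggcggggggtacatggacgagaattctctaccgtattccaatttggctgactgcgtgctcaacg
mdt-26: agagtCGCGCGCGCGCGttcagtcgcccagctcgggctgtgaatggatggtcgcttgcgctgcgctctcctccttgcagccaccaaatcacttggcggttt
F12F6.1: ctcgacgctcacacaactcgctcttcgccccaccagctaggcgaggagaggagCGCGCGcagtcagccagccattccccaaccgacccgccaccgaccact
F54F2.6: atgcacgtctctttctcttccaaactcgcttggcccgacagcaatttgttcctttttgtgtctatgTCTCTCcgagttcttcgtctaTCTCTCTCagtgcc
pas-1: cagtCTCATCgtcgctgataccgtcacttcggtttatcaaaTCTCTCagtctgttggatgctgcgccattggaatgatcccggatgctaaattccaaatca
F41F3.3: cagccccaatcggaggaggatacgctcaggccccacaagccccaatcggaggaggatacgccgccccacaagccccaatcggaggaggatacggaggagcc
his-60: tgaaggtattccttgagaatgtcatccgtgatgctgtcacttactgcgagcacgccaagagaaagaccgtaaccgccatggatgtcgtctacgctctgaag
Y53G8AL.4: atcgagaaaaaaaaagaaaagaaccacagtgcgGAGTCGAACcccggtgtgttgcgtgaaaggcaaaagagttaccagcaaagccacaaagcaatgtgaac
sms-3: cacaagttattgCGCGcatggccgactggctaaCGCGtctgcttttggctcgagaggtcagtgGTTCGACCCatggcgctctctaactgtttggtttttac
Y43F8B.2: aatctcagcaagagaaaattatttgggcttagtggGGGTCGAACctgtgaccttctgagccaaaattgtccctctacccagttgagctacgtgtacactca

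The position rule took 11.6 Mb of the genome, 11.6% of it, and 12.2% of the sites. The density was 33.1 sites per Mb for downstream sites, against 37.9 for the 627 sites up to 1000 bp upstream of single genes and 78.8 for the 230 sites between divergent TSSs. Elsewhere in the genome it was 21.5 per Mb. Within the range the density was uneven, with 35.4 sites per Mb in the first 100 bp, 43.2 in the next 100 bp and 39.0 in the 100 bp after that. It was 23.1 per Mb in the 100 bp from 300 bp on and 23.9 from 400 to 500 bp. In the 500 bp upstream of the TSS the bins of 100 bp ran from 39.3 to 47.8. The median distance was 202 bp, with quartiles of 105 and 317 bp. These densities were not tested, since sites are not replicates.

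**Figure D1:**
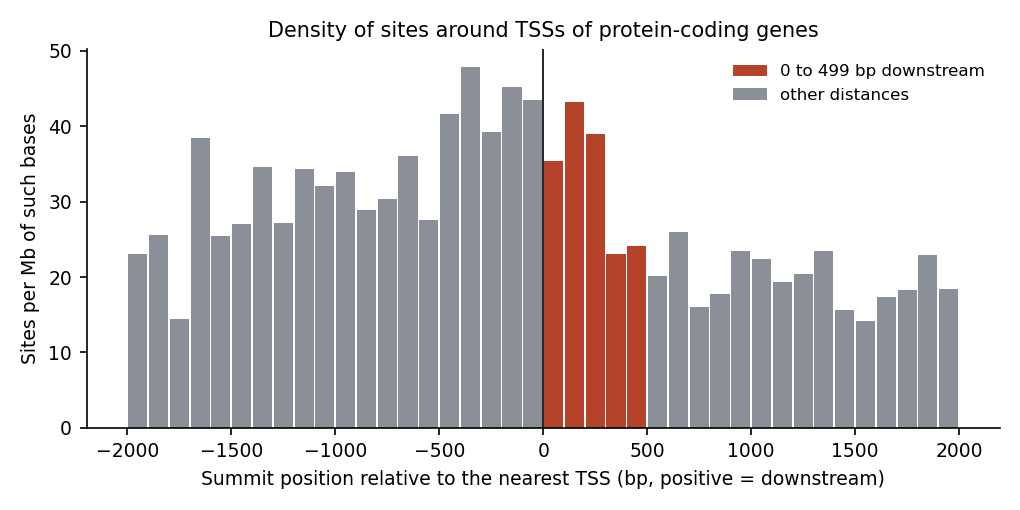
Number of sites per Mb of DNA at the same distance (vertical axis) in bins of 100 bp of signed distance from the nearest TSS (horizontal axis), without bases between divergent TSSs or near small RNA genes. The 3 bins of the first 300 bp downstream reach 35.4 to 43.2 sites per Mb, and the next bins lie at 23.1 and 24.1.

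Just inside the upstream end of the range, at a distance of 0 bp, were the sites of Y43F8C.3 (signal 184), ubc-3 (128) and hoe-1 (120). Just outside it were those of W01H2.2 (155) and acs-13 (117), both at -1 bp, and of Y39B6A.43 (352) at -6 bp. At the other end, rad-54.L2 (138) at 495 bp and idpc-6 (142) and rig-6 (105), both at 498 bp, were inside. Next beyond it were rpl-30 (105) at 503 bp, ccch-1 (178) at 505 bp and oac-1 (109) at 507 bp. The signal did not separate sites inside from sites outside the limits.

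Downstream sites had lower signals than upstream sites and signals near those of sites elsewhere in the genome. Their median signal, the authors' own value for each peak, was 129 with quartiles of 116 and 149. Upstream single-gene sites had a median of 139 with quartiles of 121 and 189, and sites between divergent TSSs had 165. The ratio of the median of downstream sites to that of upstream sites was -0.11 on the log2 scale, and in the lists of the single replicates it was -0.20 and -0.22. The upper end differed more than the median. Of the downstream sites 5.99%, 23 of them, had a signal above 190, the upper quartile of all sites, against 24.2% of the upstream ones. The 1478 sites elsewhere had a median of 131 with quartiles of 117 and 159, close to those of the downstream sites. All sites outside the downstream range together had a median of 142, which includes the 427 sites near small RNA genes with a median of 247. The IDR score, on which the list was thresholded, was at its highest value of 1000 in 202 of the 384 downstream sites.

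**Figure D2:**
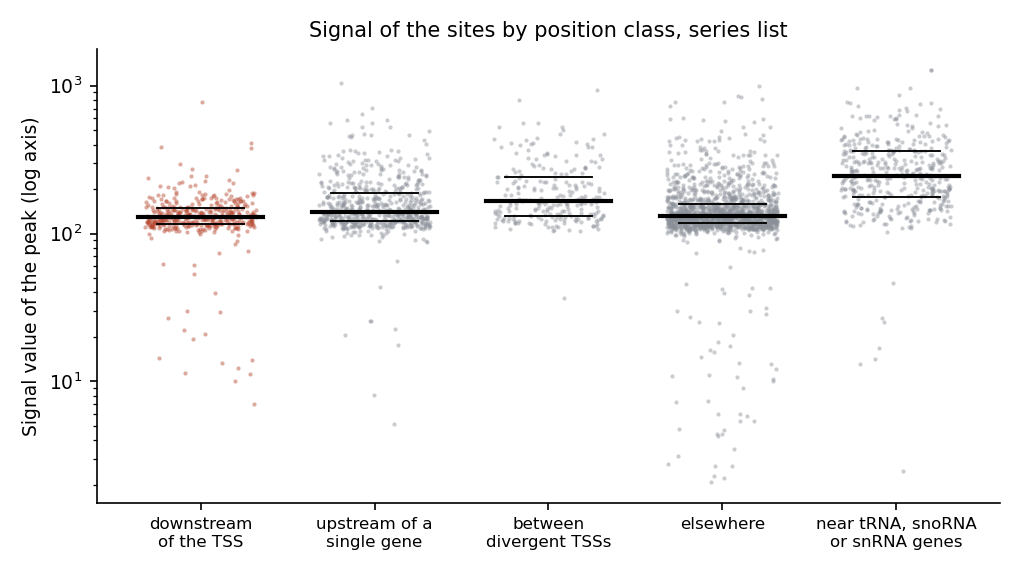
Signal value of each site in the series list (vertical log axis) by position class (horizontal axis), with thick lines at the medians and thin lines at the quartiles. Downstream sites have a median of 129 and few values above 190, against a median of 139 for upstream single-gene sites.

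The replicates each had fewer such sites, 119 of 1532 peaks in replicate 1 (7.77%, 95% Wilson interval 6.53 to 9.22) and 159 of 1621 in replicate 2 (9.81%, 8.45 to 11.4), against 12.2% in the series list (11.1 to 13.4). A site is called in a replicate below when its peak overlapped a thresholded peak of that replicate by at least 1 bp. Of the 384 downstream sites, 54 were called in both replicates (14.1%, 10.9 to 17.9), 43 in replicate 1 alone, 80 in replicate 2 alone and 207 in neither (53.9%, 48.9 to 58.8). Among upstream single-gene sites 29.98% were called in both (26.5 to 33.7) and 40.5% in neither (36.7 to 44.4). Among sites elsewhere the shares were 20.2% in both and 49.3% in neither, nearer to the downstream ones, and over all sites 30.6% and 40.9%. All Wilson intervals here cover counting error only.

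That gap went with the signal. Above the upper quartile of the list 91.3% of downstream sites were called in both replicates (73.2 to 97.6), against 93.4% of upstream sites (88.3 to 96.4). From the median of the list to its upper quartile the shares were 26.5% of downstream sites (19.3 to 35.4) and 26.7% of upstream sites (20.5 to 34.03). Below the median of the list, 3 of 248 downstream sites and 3 of 314 upstream sites were called in both. The downstream ones were drap-1 (74.1), K11D12.14 (62.2) and ints-4 (14.5). Each had another summit of the list within 250 bp, so its calls can be those of the neighbouring peak. At like signal the intervals of both classes thus overlapped.

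In the ranked lists, which go much lower than the thresholded ones, 379 of the 384 sites had an overlapping peak in both replicates. Replicate 1 had a median signal of 63.5 across these 379 sites, and replicate 2 one of 69.6. The Spearman correlation was 0.162 and the Pearson correlation 0.421 on the log2 scale, against 0.524 and 0.699 across 611 upstream single-gene sites. These correlations are descriptions across sites that share the same libraries, and most downstream sites span a narrow range of signal. Among the 54 sites called in both, the ratio of replicate 1 to replicate 2 signal had a median of 0.967 and ran from 0.591 to 1.40. It was highest at egl-21, which encodes a carboxypeptidase that processes neuropeptides (98.1 in replicate 1 and 70.2 in replicate 2), at K08F11.1 (437 and 340) and at F46E10.2 (93.3 and 78.7). It was lowest at icl-1, the glyoxylate cycle enzyme gene (64.4 in replicate 1 and 109 in replicate 2), at F42A6.6 (112 and 163) and at mdt-26 (173 and 236).

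**Figure D3:**
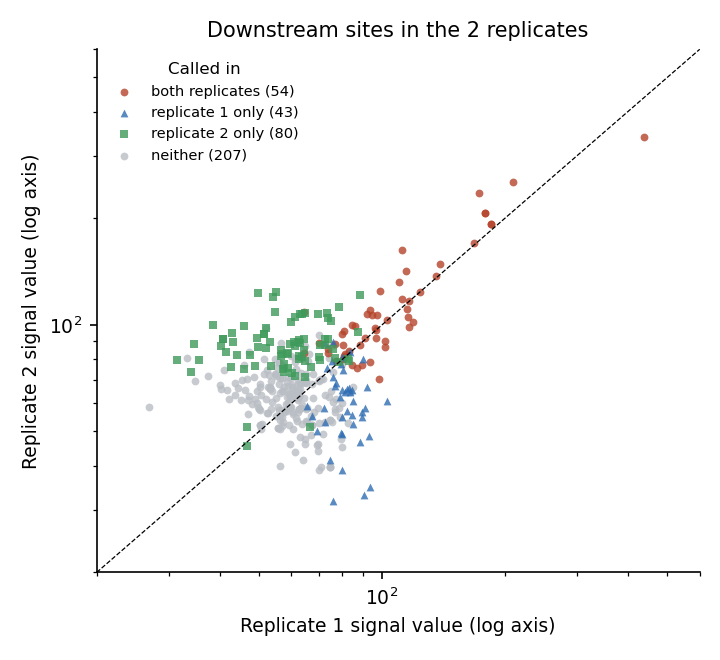
Signal of each downstream site in replicate 1 (horizontal log axis) and in replicate 2 (vertical log axis), as the strongest overlapping peak of each ranked list, coloured by the replicates in which the site was called. The 379 sites with a peak in both ranked lists are drawn, while the legend counts all 384. Sites called in both lie along the dashed line of equal signal, and those called in neither form a cloud at low values.

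Peak shape set a small group apart. A width of exactly 330 bp with the summit at the centre was found in 363 of the downstream sites (94.5%), against 83.2% of all sites. The other 21 were narrower, from 82 to 307 bp, and had a median signal of 219, against 127 for those of 330 bp. Of the narrow ones 19 were called in both replicates, and of the others 35. At the low end, 26 sites had a signal under 100, and 20 of these had another summit of the list within 250 bp, against 14 of the remaining 358. Peaks of such neighbours overlap and can share reads, so they are not independent sites. For such a weak peak the replicate signal and the replicate call can be those of its stronger neighbour. The pck-2 sites of 381 and 154, for example, both had 185 in replicate 1 and 193 in replicate 2. Such sites stayed in the counts of called sites and in the correlations. With 330 bp peaks alone in both classes, the log2 ratio of the medians, downstream over upstream, was -0.069.

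The strongest site, with a signal of 770 and rank 16 of 3146, had 437 in replicate 1 and 340 in replicate 2. It lay at IV 4725468 to 4725719, 426 bp downstream of an internal TSS of K08F11.1 and outside annotated protein-coding transcripts, with a noncoding RNA gene 118 bp and a pseudogene 392 bp away. The mdt-26 site at II 5661092 to 5661338 followed with 406, and its summit lay 17 bp downstream of the TSS and 4 bp past the first base of the start codon. Next were 2 sites in 5' UTRs on chromosome I. That of ints-4, a subunit gene of the Integrator complex that cleaves nascent RNA, had 385 at I 13663271 to 13663469, with 179 in replicate 1 and 207 in replicate 2. That of pck-2, a gene for phosphoenolpyruvate carboxykinase in gluconeogenesis, had 381 at I 7868974 to 7869280, with 185 and 193. All 4 were called in both replicates, and the drop from the first to the second was larger than that between any later neighbours in rank.

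The pck-2 gene held 3 downstream sites, the most of any gene, with summits spread over 2954 bp. Those with signals of 381 and 154 lay 23 and 222 bp from the same TSS, and that with 169 lay 115 bp from another TSS. Another 19 genes held a pair, which in 11 of them lay downstream of the same TSS. In 13 of these pairs one of the signals was below 75, as at ints-4 (385 and 14.5), at the S-adenosylhomocysteine hydrolase gene ahcy-1 (106 and 29.3) and at hrpa-1 (115 and 11.2), which encodes an RNA-binding protein of the hnRNP A1 type. At unc-15, the gene for paramyosin of muscle thick filaments, both were of like size, 128 at 60 bp from one TSS and 123 at 432 bp from another, with the summits 4241 bp apart.

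The fifth to the twelfth strongest sites had signals from 294 to 227. The alpha tubulin gene tba-7 had 294 in an intron at III 11371363 to 11371545, where 2 noncoding RNA genes overlap the summit, with 139 in replicate 1 and 149 in replicate 2. The Y53G8AL.4 summit (272) lay in the microRNA gene cel-mir-4936. F42A6.6 had 267 in a coding exon. The coding exon site of rla-1, which encodes an acidic protein of the ribosomal stalk, had 245, with 114 in replicate 1 and 142 in replicate 2. F12F6.1 (244) and sms-3 (236) carried theirs in introns, T02E1.2 (229) in the 5' UTR and F41F3.3 (227) in a coding exon. All 8 were called in both replicates.

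In the next 13 sites the signals ran from 223 to 187. Among them were mai-1 (220), which encodes a relative of the inhibitor of the mitochondrial ATP synthase, tent-5 (214), which encodes a poly(A) polymerase, and the G protein subunit genes gpb-1 (208, beta) and egl-30 (203, Gq alpha). The histone gene his-60 had 198, with 97.04 in replicate 1 and 106 in replicate 2. The others were Y65B4A.2 (223), Y43F8B.2 (219), K10C3.4 (211), F54F2.6 (207), ZK470.2 (192), F53F1.4 (191), mig-38 (189) and mag-1 (187), which encodes a protein of the exon junction complex. Of these 13 sites 3 were called in replicate 2 alone, namely gpb-1 (88.2 in replicate 1 and 121 in replicate 2), F53F1.4 (73.2 and 108) and mag-1 (78.4 and 112). The remaining 10 were called in both.

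Coding exons held most summits and introns few. On the strand of the gene, 251 summits lay in a coding exon (65.4%, 60.5 to 69.95), while coding exons made up 49.6% of all bases that the position rule covers. The 5' UTRs held 53 (13.8%, 10.7 to 17.6), against 8.74% of the bases. Introns held 73 (19.01%, 15.4 to 23.2), against 39.2% of the bases. Another 7 lay past the end of every protein-coding transcript, and none in a 3' UTR, for which the upper Wilson limit was 0.990%. Per Mb this was 43.6 sites in coding exons, 52.3 in 5' UTRs and 16.1 in introns. The summit lay past the nearest start codon of its gene in 322 cases (83.9%), by a median over all 384 sites of 168 bp.

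Sites in 5' UTRs had the highest median signal, while the intervals of coding exon and intron sites for calls in both replicates overlapped. Summits in coding exons had a median signal of 126 and 9.56% of them were called in both replicates (6.51 to 13.8). Those in 5' UTRs had a median of 146 and 33.96% called in both (22.7 to 47.4). In introns the median was 133 and the share 12.3% (6.62 to 21.8). The share of summits in coding exons was lower in the replicate lists than in the series list, 52.1% in replicate 1 and 60.4% in replicate 2.

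GC content moved with the sites. In windows of 101 bp centred on the summit it averaged 52.9% ± 7.9 (SD over 384 sites), against 37.0% ± 8.5 over all windows that the position rule covers, and 373 of the 384 sites were above that mean. Upstream single-gene sites also averaged 52.9%, against 34.3% for all their windows, so both classes were high. Downstream intron summits averaged 52.4%, against 32.6% for all intron windows, and coding exon summits 53.4%, against 40.7%. Sites called in both replicates averaged 53.6% and those called in neither 52.2%. The 8625 downstream peaks of the ranked series list that were outside the thresholded list averaged 44.2%. The part of GC content in the signal was not tested. Windows with at least 50% soft-masked (repeat) bases in the RefSeq FASTA made up 2.08% of the downstream summits, against 19.8% of all their windows.

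**Figure D4:**
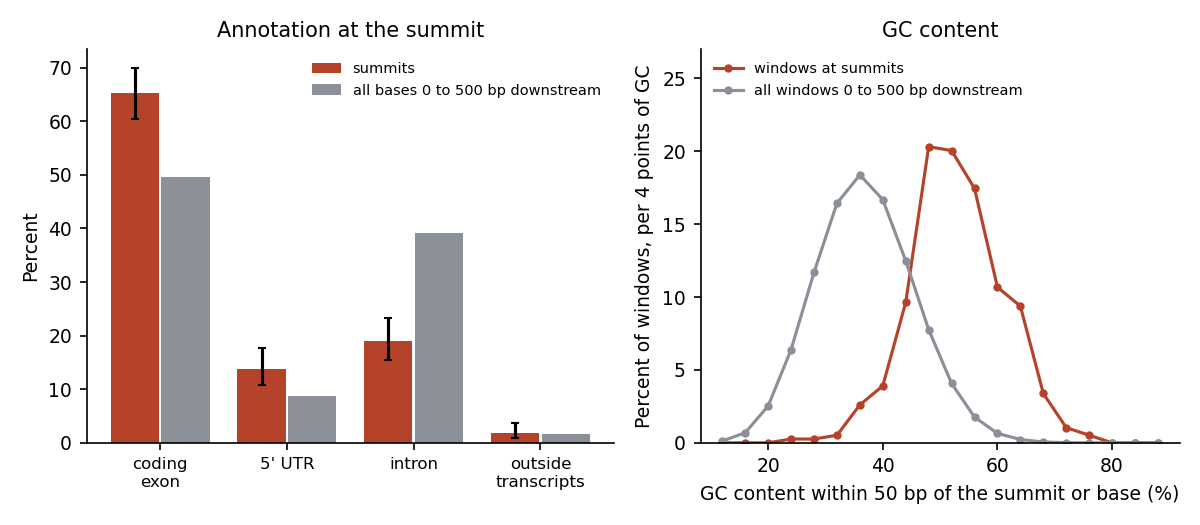
Left, percent of downstream summits (with 95% Wilson intervals) and of all bases 0 to 500 bp downstream in each annotation on the strand of the gene, without the 3' UTR, which held no summit. Right, percent of 101 bp windows (vertical axis) per 4 points of GC content (horizontal axis), at summits and over all such bases. Coding exons hold 65.4% of summits and 49.6% of bases, and the summit windows average 52.9% GC, against 37.0%.

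Short motifs were searched on both strands in the same windows, and beside each count stands the share of all windows that the position rule covers. The letters CGCG were present at 122 sites (31.8%, 27.3 to 36.6), against 8.92% of all windows. Upstream sites had them in 40.8%, against 9.11%, sites between divergent TSSs in 54.8%, against 11.9%, and sites elsewhere in 31.4%, against 8.41%. GAGAGA was present at 35 (9.11%, 6.63 to 12.4), against 4.67%, while upstream sites had it in 21.7% (18.6 to 25.08), against 6.22%. In the replicate lists its share among downstream sites was 16.8% (20 of 119) in replicate 1 and 10.7% (17 of 159) in replicate 2. GATGAG was present at 41 (10.7%, 7.97 to 14.2), against 5.42%, and in 6.06% of upstream sites (4.45 to 8.21), against 3.96%. Sites between divergent TSSs had it in 7.39%, against 4.11%, and sites elsewhere in 6.63%, against 4.39%. Its share among downstream sites was lower in the replicate lists, 7.56% (9 of 119) in replicate 1 and 9.43% (15 of 159) in replicate 2. Letters rich in A and T went the other way, in downstream and in upstream sites. GATAAG, from the GATA-like part of the element known for EVI1, was present at 6 sites (1.56%), against 3.78%, TATAAA at 8 (2.08%), against 10.4%, and AAAAAAA at 6 (1.56%), against 17.03%. Upstream sites had GATAAG in 1.12%, against 4.30%, TATAAA in 1.91%, against 12.9%, and AAAAAAA in 7.66%, against 24.5%. The splice acceptor letters TTTCAG were present at 38 sites (9.90%, 7.29 to 13.3), against 22.02%. They were also scarce in upstream sites (6.38%, against 18.8%) and in sites elsewhere (6.63%, against 19.8%). The E-box CANNTG was present at 145 (37.8%), against 35.1%, and the AP-1 element TGACTCA at none, against 0.874%. The GC content of the windows moves with these shares, and its part in them was not tested. In the replicate 1 list TATAAA was present at 5.04% of downstream sites, AAAAAAA at 3.36% and GTTCNANNC at 12.6%, and in the replicate 2 list at 2.52%, 3.77% and 6.92%. GATAAG was present at 0.840% in replicate 1 and 2.52% in replicate 2, and TTTCAG at 9.24% and 6.29%. These motifs may overlap one another and a match is not a bound site.

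The B box letters GTTCNANNC, counted after the sequences had been seen, were present at 21 downstream sites (5.47%, 3.60 to 8.22), against 3.71% of all windows, and at 5.41% of sites elsewhere, against 3.52%. The interval of the downstream share includes that of all windows. They were present at 5 of the 25 strongest, namely Y53G8AL.4 (272), rla-1 (245), sms-3 (236), Y65B4A.2 (223) and Y43F8B.2 (219). The position rule had already left out summits within 200 bp of annotated tRNA genes. The letters were chosen from sequences of strong sites called in both replicates, so their presence there is no support for a link with signal. In the sites within 200 bp of tRNA, snoRNA or snRNA genes, which are outside the downstream class, 54.3% held these letters.

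Of all 19973 protein-coding genes 1.82% had a downstream site, which is the background for the gene lists. The lists do not hold every gene of their kind, so counts and intervals are for the listed genes only. Downstream sites were found at 6 of 49 splicing factor genes (12.2%, 5.73 to 24.2), among them hrpr-1 (signal 142) and rsp-5 (117). The first encodes an hnRNP R protein and the second an SR protein, and hrpa-1 (115), rsp-1 (108), prp-39 (107) and rsp-2 (104) were the others. No site of these listed splicing factor genes was called in either replicate, while 53.9% of all downstream sites were called in neither. Splicing genes that the list left out included lsm-6 (185) and asd-1 (98.8), whose downstream sites were called in replicate 2 alone. Cuticle collagens, the main structural proteins of the worm exoskeleton, had 11 of 156 (7.05%, 3.98 to 12.2), led by col-125 (164), col-71 (154) and col-129 (138). Genes related to hedgehog and patched, many of them expressed in the epidermis, had 6 of 85 (7.06%, 3.28 to 14.6), led by grl-29 (172), grl-4 (146) and wrt-1 (136). Upstream single-gene sites were found at 3 of the 156 collagens, 1 of the 85 hedgehog and patched relatives, 2 of the 49 splicing factor genes and 1 of 72 histone genes. In other lists more genes had an upstream site than a downstream one. Among them were unc genes (14 of 94 upstream), cytosolic ribosomal protein genes (7 of 78) and proton pump and vacuolar sorting genes (5 of 51). Zinc finger and bZIP genes (5 of 50), lin genes (9 of 47) and heterochronic genes (7 of 15) were others. Members of the collagen, hedgehog-related and histone families share sequence, and reads from near-identical copies may have been split or dropped in the authors' processing.

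Among housekeeping lists, those of ribosomal, proton pump and histone genes had intervals above the background and the others did not. Listed cytosolic ribosomal protein genes had 5 of 78 (6.41%, 2.77 to 14.1), namely rpl-27 (149), rps-16 (139), rpl-11.2 (127), rpl-13 (117) and rps-11 (106). The stalk protein gene rla-1 (245), among the strongest sites, was not on that list. Proton pump and vacuolar sorting genes had 3 of 51, namely vha-3 (152), vha-2 (136) and vha-20 (132), all subunits of the proton pump. Chaperone genes had 3 of 59, namely hsp-60 (149), hsp-110 (119) and hsp-1 (85.0), and proteasome genes 2 of 33, pas-1 (144) and pbs-5 (136). Histone genes had 4 of 72 (5.56%, 2.18 to 13.4), namely his-60 (198), his-62 (154), his-61 (153) and his-42 (123). The peaks of his-60, his-61 and his-62 lay close together, between 7485806 and 7487841 on chromosome IV, which the interval does not take into account. That list left out hil-4 (167), a linker histone gene whose downstream site was called in neither replicate. Among listed mitochondrial ribosomal protein genes mrpl-50 (153) was the 1 of 70, among listed respiratory chain genes atp-4 (113) was the 1 of 39, and among listed trafficking genes sec-61.B (119) was the 1 of 59. Left out of the first 2 of these lists were dap-3 (102), a mitochondrial ribosomal protein gene, and nduf-7 (135), a complex I subunit gene. Both had a downstream site. No site was found at the 72 translation factor and tRNA synthetase genes.

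Lists of regulators and neuronal genes differed among themselves. The zinc finger and bZIP list had 4 of 50 (8.0%, 3.15 to 18.8), led by zip-11 (182), zip-2 (147) and zfp-1 (145), and nuclear hormone receptors had 4 of 269 (1.49%, 0.580 to 3.76), led by nhr-88 (172), nhr-241 (135) and nhr-10 (134). The homeobox gene ceh-34 (111) was the 1 of 63 ceh genes. Of 94 unc genes, named for uncoordinated movement, 6 had a site (6.38%, 2.96 to 13.2). They were unc-62 (131, a homeodomain factor), unc-43 (128, the CaM kinase II), unc-15 (128), unc-116 (122, the kinesin heavy chain), unc-33 (118, of axon outgrowth) and unc-31 (116, of dense core vesicle release). Neuropeptide and insulin genes had 3 of 140, namely nlp-76 (141), ins-24 (120) and nlp-33 (114). C-type lectins had 4 of 240 (1.67%, 0.650 to 4.21), led by clec-91 (120), clec-96 (114) and clec-85 (109). Chemoreceptor genes had 1 of 1309 (0.0764%, 0.0135 to 0.431), srt-29 (145), and none of the 322 listed F-box genes had one (upper Wilson limit 1.18%). The F-box list left out dre-1 (111), an F-box gene with a downstream site.

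Lists of developmental genes held single downstream sites. They were fos-1 (113) of 22 genes of anchor cell fate and invasion, osm-11 (158) of 23 Notch genes and dre-1 (111) of 15 heterochronic genes. The lin-38 site (19.4), with another summit 205 bp away, was the 1 of 47 lin genes. The sites of fos-1, dre-1 and lin-38 were called in neither replicate, and that of osm-11 in replicate 2 alone. No site was found at the listed 28 Wnt genes, 34 cell cycle genes, 34 let genes, 25 bHLH genes or 62 potassium channel genes. The upper Wilson limits in that order were 12.1%, 10.2%, 10.2%, 13.3% and 5.83%. The last 2 lists left out hif-1 (116), a bHLH factor gene, and kcnl-1 (143), a potassium channel gene, which each had a downstream site. In muscle, unc-15 was the 1 of 25 listed filament genes, and the list left out tnt-3 (113), a troponin T gene with a downstream site. In the 8 lists with intervals above the background, only grl-29, rpl-27, his-60, his-62 and zip-11 had a site called in both replicates. Of all downstream sites 14.1% were called in both. Even in the ranked lists nhr-241, nhr-10 and nlp-33 had no overlapping peak in replicate 2, and ceh-34 and col-122 none in replicate 1. The lists were chosen with earlier results of these data known and were not tested.

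**Figure D5:**
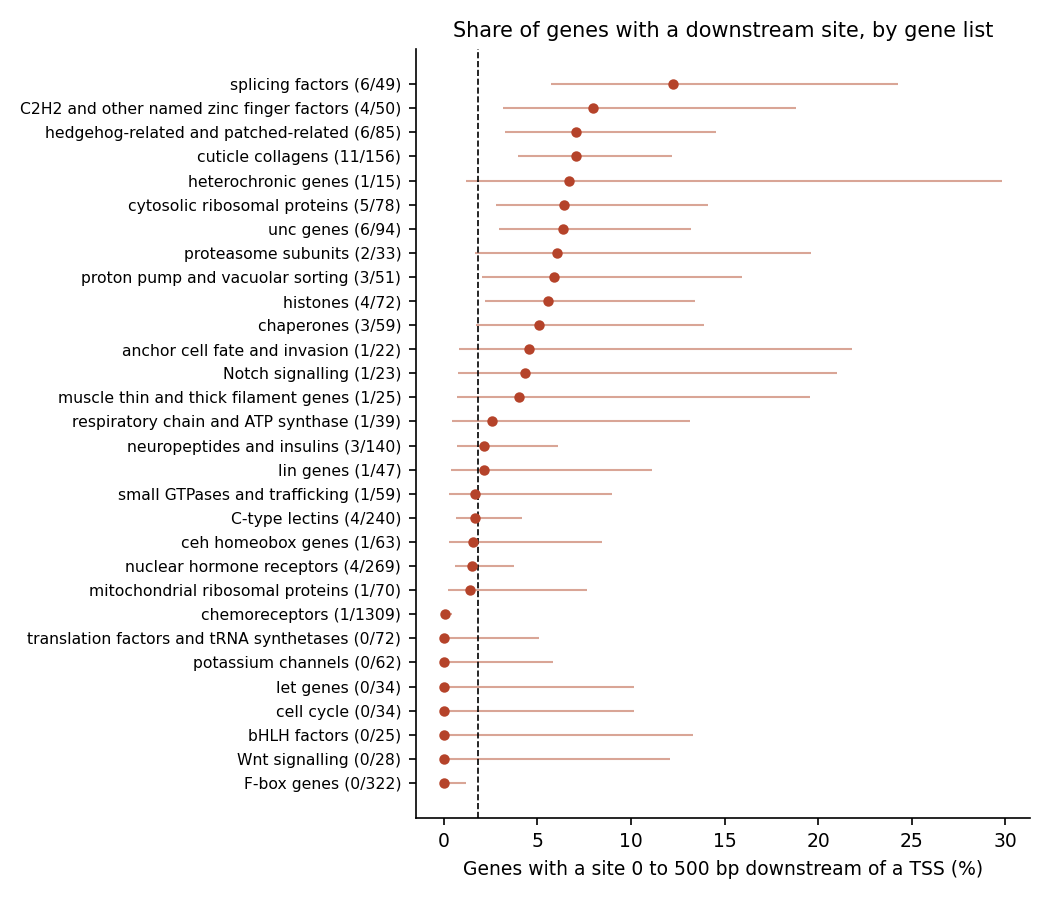
Percent of the genes of each list with a downstream site (horizontal axis), with 95% Wilson intervals and the counts beside the names of the 30 lists (vertical axis). The dashed line marks the 1.82% of all protein-coding genes, and chemoreceptor and F-box genes are the 2 lists whose intervals lie wholly to its left, against 8 wholly to its right.

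Name families counted after the members had been seen included 3 of the 6 vitellogenin genes, vit-2, vit-5 and vit-6, which encode yolk proteins. They also included 3 of the 31 msp genes of the major sperm protein, msp-33, msp-50 and msp-142, and 3 of the 8 rsp genes. Of the 7 idpc genes 4 had a site, namely idpc-4, idpc-5, idpc-6 and idpc-7, which all lay between 9618442 and 9626064 on chromosome V. Over all protein-coding genes the share with a downstream site was 1.82%. Of the sites in these vit, msp, rsp and idpc genes, only that of idpc-7 was called in both replicates. The families were picked from the members, so their counts are descriptions and were not tested.

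The genes with a downstream site had a median length of 2461 bp, against 2027 bp for all protein-coding genes. A gene on the same strand ended within 500 bp upstream of 89 of the 363 genes (24.5%, 20.4 to 29.2), against 18.1% of all genes, an arrangement that in worms includes the later genes of operons. The TSS was the first of its gene at 253 of 384 sites (65.9%, 61.0 to 70.4), against 68.9% of the bases that the position rule covers. The summit was also within 1000 bp upstream of a TSS of another gene at 64 sites and of a later TSS of the same gene at 32. At these sites, which can be in both counts, the side of the TSS depends on which TSS is taken. An upstream single-gene site was present at 33 of the 363 genes (9.09%), against 2.95% of all protein-coding genes.

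Chromosome I and the X chromosome stood at the ends of the range for downstream sites. Chromosome I had the highest density of downstream sites, 50.5 per Mb (85 sites), and upstream sites had 50.7 per Mb there. The X chromosome had the lowest, 21.6 per Mb (36 sites), while upstream sites on X had the highest density of any chromosome, 55.1 per Mb. On chromosome V the densities were 25.25 and 22.3 per Mb, and on chromosome IV 33.5 and 28.9. Chromosomes II and III had 34.3 and 38.8 downstream sites per Mb, against 37.9 and 42.98 for upstream sites. Median signals of downstream sites ran from 126 on chromosome II to 137 on chromosome III.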

How the data were processed

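ChIP-seq peak lists of 2 biological replicates were analysed on ce11, which is WBcel235, per the file headers. The authors' score is the IDR score, and the lowest in each thresholded list was 830. The signal of each peak was deposited by the authors, and levels were compared within a list. Its normalization, the aligner, the peak caller and the read depth were not given in the sources used here, so single signals carry no error.

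The summit is the peak start plus the deposited offset, which for 1 peak of the series list runs past the peak end. Distances were taken to the nearest of 29314 protein-coding TSSs of Ensembl release 115, and ties went to the lower coordinate (1 site). Every base of the genome was classed by the same rule as the summits. Shares carry 95% Wilson intervals from scipy 1.17.1 under Python 3.11.15. The position rule was tested on simulated data. Members, lists and motifs were chosen with earlier results of these data known. Named are the 25 strongest sites, up to 3 genes per list with whole lists where few genes had a site (the further names were added after their values were seen), sites at the limits of the range and extremes of the replicate ratio. Genes of a like kind that the lists left out, and weak sites called in both replicates, were named after the members had been seen. There is 1 group and sites are not replicates, so no p-values were computed. Alternatives covered the list, signal, range, TSS set, distance to small RNA genes, overlap and motif window.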

Additional observations from a re-analysis of the deposited data

How the results depend on the processing

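Among the results that answer the main questions, 25 values under alternative settings stayed within their counting interval, within 1.5 times the main count or within the spread between replicates, and 24 moved. None changed sign. With peaks at or above the median signal there were 136 downstream sites, 37.5% called in both replicates, a log2 ratio of median signals of -0.24, 56.6% of summits in coding exons and 0.666% of genes with a site. With a range of 0 to 1000 bp these were 590 sites, a log2 ratio of -0.13, 59.5% in coding exons and 2.74% of genes. With 0 to 300 bp the log2 ratio was -0.10 and 1.36% of genes had a site. With the first TSS of each gene they were -0.12 and 1.53%, and with the conservative list the log2 ratio was -0.14. A reciprocal overlap of 50% gave 9.90% called in both replicates. With 330 bp peaks alone, an alternative chosen after seeing the data, the log2 ratio was -0.069. Leaving out a replicate, so that the list of the other one stood in for the series list, gave 119 to 159 sites, log2 ratios from -0.22 to -0.20, 52.1% to 60.4% in coding exons and 0.571% to 0.746% of genes. The replicate lists are shorter than the series list and the range sets how many bases are covered, and other causes were not tested. No paired analysis was possible because all samples belong to 1 group. Read depth is unknown, so what it limits cannot be given.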
